A study of Homo sapiens with 6 samples.

Results

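The core spliceosome was described here through 55 protein-coding genes, chosen by name as the proteins of the U1, U2, U4/U6 and U5 small nuclear ribonucleoproteins (snRNPs), the Sm and LSM rings that these particles carry, and catalytic factors. All 55 were among the 35322 gene symbols of the count table, and all 55 passed the filter on low counts that kept 16510 genes for testing. They were read in 8 groups by role, comprising 8 genes of the U5 snRNP, 14 of the U2 snRNP and U2AF, 3 of the U1 snRNP, 7 of the Sm ring, 5 of the U4/U6 snRNP and tri-snRNP, 7 of the LSM ring, 4 of the PRP19 complex, and 7 helicases and step factors. U5 comes first because ZMYND11, the depleted protein, is known to associate with U5 factors such as EFTUD2.

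The spliceosome removes introns from precursor messenger RNA. U1 recognises the 5′ splice site, U2AF and U2 recognise the 3′ end of the intron and its branch point, and a tri-snRNP of U4/U6 and U5 then joins them. RNA helicases remodel the assembly and the PRP19 complex stabilises its catalytic form, in which U5 holds the exons in place while they are joined.

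RNA of 22Rv1 cells, an established human prostate carcinoma line, was sequenced in 6 libraries, 2 for each of 3 groups. The control group had the genotype label WT, and the other groups, ZM11-kd1 and ZM11-kd2, were knockdowns of ZMYND11, a reader of histone H3.3 trimethylated at lysine 36. All groups were cultured alike in RPMI1640 with serum, and untreated. The study's methods name poly(A) selection or ribosomal RNA removal, without saying which these libraries had. Lentiviral short hairpin RNAs in stably infected cells were the study's means of knockdown, and the study describes its sequenced controls as carrying control hairpins, although their label is WT. The labels did not give the hairpin of each knockdown group or whether libraries of a group came from separate cultures. P-values therefore measure the spread between these libraries, which may be technical.

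The libraries held 26844128 to 38193748 counts, and levels are given as CPM, counts scaled to a common library size with edgeR's TMM factors. The targeted gene, ZMYND11, had 141 and 135 CPM in control and 21.6 to 27.7 in the knockdowns (log2 fold changes −2.35 in ZM11-kd1 and −2.64 in ZM11-kd2). All 10 proliferation markers examined were also lower in both knockdowns, with medians of −4.67 and −3.32, as was MYC (−2.85 and −1.26), and their part in the values below was not tested. Prostate epithelial markers were expressed, leukocyte and endothelial markers had at most 36 counts in any library, and of the 4 stromal markers COL1A1 (728 to 2542 counts), LUM (221 to 455) and DCN (19 to 87) went above that level and COL3A1 (1 to 31) did not. KDR and CD3E, which define endothelial and T cells, had no counts. The summed level of the stromal list was 35.5 and 32.8 CPM in control, 85.7 and 86.6 in ZM11-kd1, and 43.5 and 44.01 in ZM11-kd2, and its part in the values below was not tested. Replicates of ZM11-kd2 lay further apart than those of the other groups: the median absolute log2 difference between replicates over the 55 genes was 0.12 in ZM11-kd2 and 0.04 in both other groups.

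The first question was whether the transcripts of the splicing machinery were at other levels when ZMYND11 was depleted. Most core spliceosome transcripts rose in both knockdowns. In ZM11-kd1, 39 of the 55 genes were higher than in control and 11 were lower at an adjusted p under 0.05 by the quasi-likelihood test of edgeR, and 5 were not called. Over all 16510 genes, 38.2% were called higher and 39.8% lower in this comparison, so that 70.9% of the spliceosome genes stood against 38.2%, and 20% against 39.8%. In ZM11-kd2, 43 were higher, 6 were lower and 6 were not called, which is 78.2% against 36.5% of all genes for the rises and 10.9% against 36.9% for the falls.

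The genes called higher in both knockdowns numbered 34 (61.8%, against 25.6% of all genes), and those called lower in both numbered 2 (3.64%, against 27%). A further 10 were called in opposite directions in the knockdowns (18.2%, against 9.1%). Without replicate 1 of control 5 of these 10 were still so called (SF3B1, LSM5, CWC22, DHX15 and DHX38), and with library totals alone 3 (SF3B1, U2AF2 and DHX15). The genes higher in both numbered 24 with library totals alone, and those lower in both 4. The knockdowns were compared with the same control libraries, so these counts are not independent of each other. With a change of at least 1.5-fold also required, 28 were higher in ZM11-kd1 (50.9%, against 28.6%) and 5 lower (9.09%, against 31.2%), and 25 were higher in ZM11-kd2 (45.5%, against 23.8%) and 2 lower (3.64%, against 27.3%).

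The median log2 fold change of the 55 genes was 0.61 in ZM11-kd1 and 0.50 in ZM11-kd2, while the median of all genes tested was −0.03 in each. Before scaling, the 55 genes took 0.704% and 0.702% of all counts in the control libraries, 0.833% and 0.835% in ZM11-kd1, and 0.941% and 0.931% in ZM11-kd2. The share was thus higher in all 4 knockdown libraries than in both controls. In bulk RNA, fewer cells of a kind and less RNA per cell cannot be told apart. Scaling changed the size of the median: with library totals alone it was 0.25 in ZM11-kd1 and 0.33 in ZM11-kd2, where the median of all genes lay at −0.38 and −0.20. The members' median less that of all genes was 0.64 in ZM11-kd1 and 0.53 in ZM11-kd2, which a change of scaling leaves nearly as it is because it shifts all genes alike, and corrected for GC content and length it was 0.44 and 0.48. Library totals alone also moved the calls in ZM11-kd1 to 30 higher and 18 lower, so that rises made up 62.5% of calls rather than 78%. Over all genes tested, rises then made up 35.3% of calls rather than 49%.

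**Figure D1:**
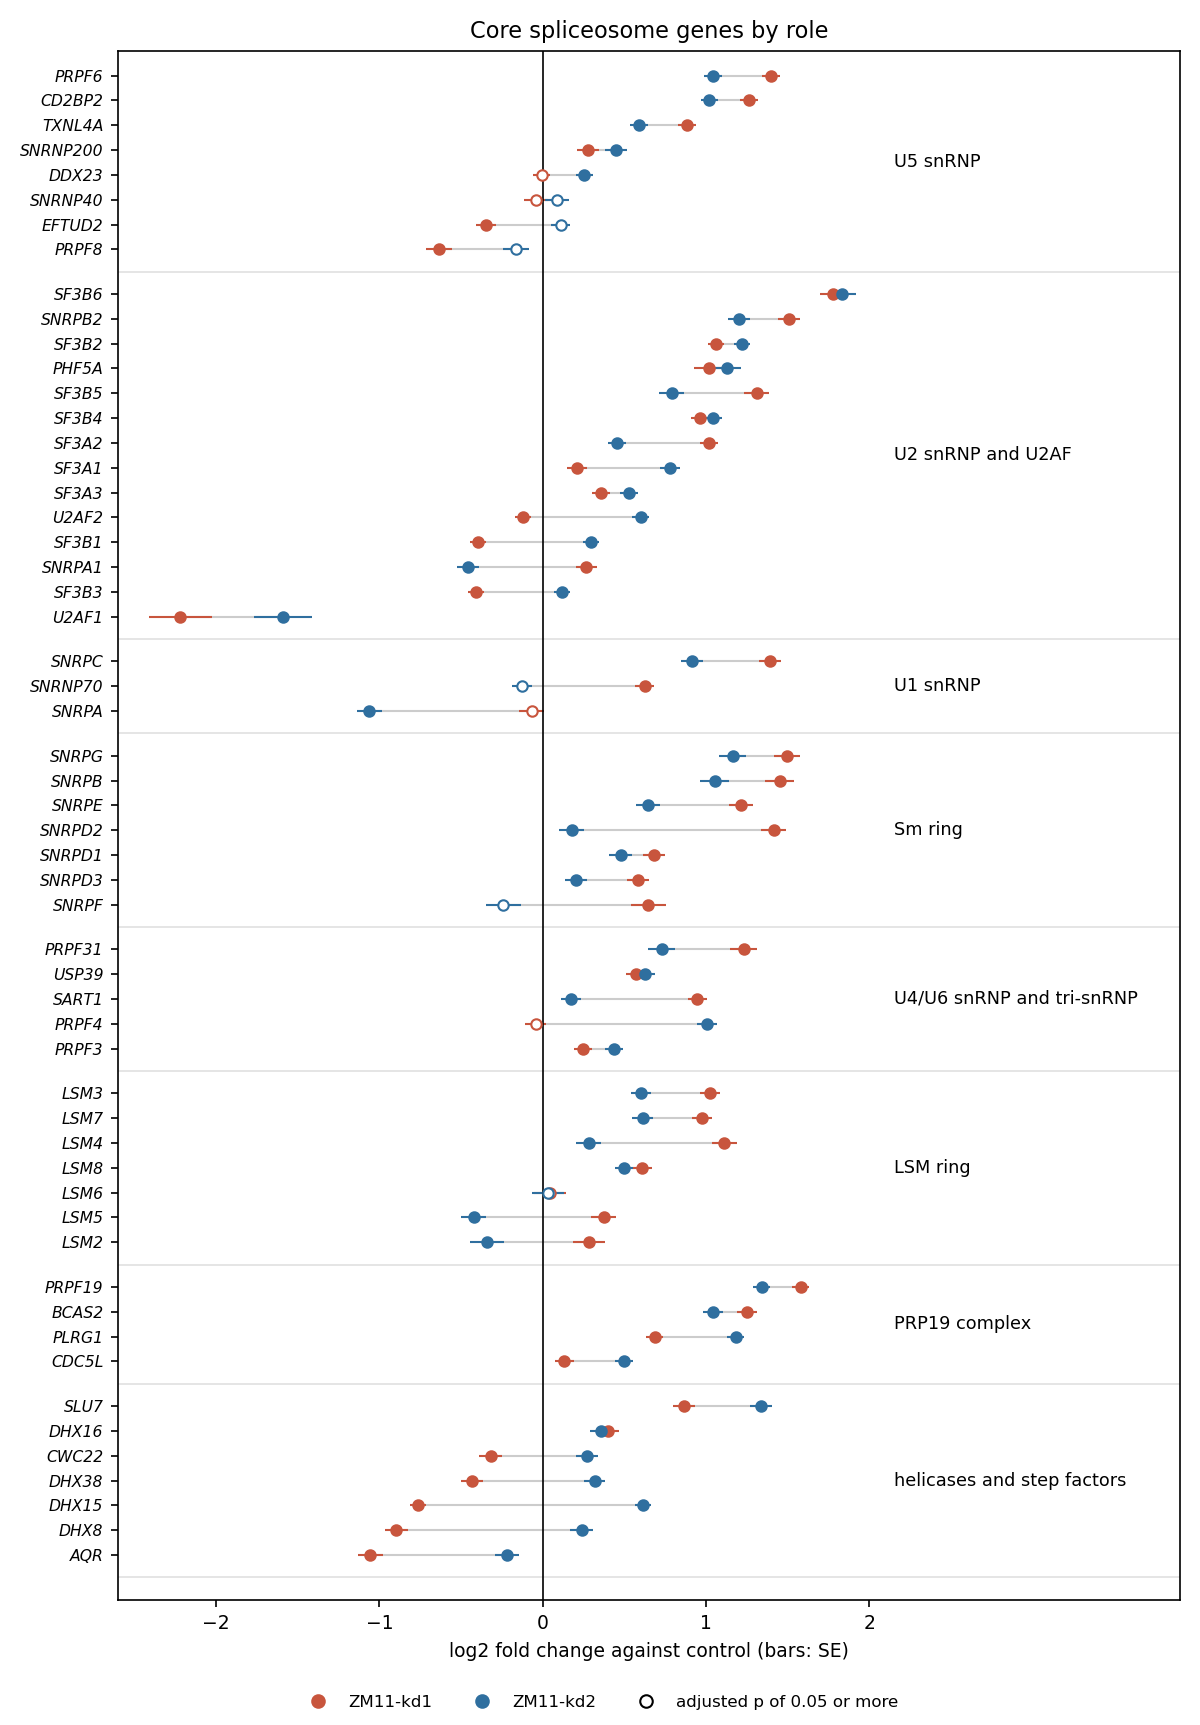
Log2 fold change against control (x axis, bars show the standard error) of the 55 core spliceosome genes (y axis, grouped by role), for ZM11-kd1 in red and ZM11-kd2 in blue, with open symbols where the adjusted p was 0.05 or more. Most points lie to the right of zero, with 39 genes called higher in ZM11-kd1 and 43 in ZM11-kd2, and the 10 genes called in opposite directions are 4 of U2 and U2AF, 4 helicases and step factors, and 2 of the LSM ring.

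Genes of the U5 snRNP differed among themselves. Of its 8 genes, 4 were higher in both knockdowns (PRPF6, CD2BP2, TXNL4A and SNRNP200), 2 were lower in ZM11-kd1 (PRPF8 and EFTUD2), and none was called lower in ZM11-kd2. The group's median log2 fold change was 0.14 in ZM11-kd1 and 0.35 in ZM11-kd2, and the former was −0.22 with library totals alone, where 3 genes were higher and 4 lower in ZM11-kd1 and 4 higher and 1 lower in ZM11-kd2. The medians became 0.46 and 0.50 when corrected for GC content and length, with 5 genes higher and 1 lower in ZM11-kd1 and 6 higher and none lower in ZM11-kd2. Levels follow the order of replicates 1 and 2, and each fold change comes from 2 libraries a group. In GRCh38 with GENCODE 44 the genes lie at chr17:44849948-44899445 (EFTUD2), chr17:1650629-1684867 (PRPF8), chr2:96274338-96321271 (SNRNP200), chr20:63981132-64033100 (PRPF6), chr1:31259568-31296788 (SNRNP40), chr12:48829756-48852842 (DDX23), chr16:30350773-30355308 (CD2BP2) and chr18:79970813-80033949 (TXNL4A), all on the minus strand but PRPF6.

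EFTUD2 encodes the GTPase of U5, which acts in activating the spliceosome and taking it apart. Its level was 96.8 and 94.1 CPM in control, 76.6 and 73.3 in ZM11-kd1, and 98.9 and 107 in ZM11-kd2. The ZM11-kd1 libraries lay below both controls and the ZM11-kd2 libraries lay just above them. The log2 fold change was −0.35 ± 0.06 (SE, edgeR adjusted p = 9.86e-05) in ZM11-kd1 and 0.11 ± 0.06 (adjusted p = 0.109) in ZM11-kd2. Correcting for length and GC content turned the former to 0.09 (adjusted p = 0.123) and raised the latter to 0.35 (adjusted p = 1.08e-05). Without replicate 1 of ZM11-kd2 the latter was 0.17 and was called (adjusted p = 0.00885).

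PRPF8 encodes the large scaffold at the catalytic centre. It measured 355 and 339.9 CPM in control, 227 and 220.5 in ZM11-kd1, and 276 and 345 in ZM11-kd2. The ZM11-kd1 libraries were well below the controls, while the ZM11-kd2 libraries differed from each other and overlapped the control range. Its log2 fold change was −0.63 ± 0.08 in ZM11-kd1 (edgeR adjusted p = 4.24e-06) and −0.16 ± 0.08 in ZM11-kd2 (adjusted p = 0.0811). These were −0.21, still called, and 0.13 (adjusted p = 0.0737) with the same correction. In ZM11-kd2 PRPF8 was called lower without replicate 2 of that group (−0.33, adjusted p = 1.03e-07), with library totals alone (−0.33, adjusted p = 0.00235), with upper quartile scaling (−0.27, adjusted p = 0.00764), and under both other filters on low counts (−0.16 and −0.20).

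SNRNP200 encodes BRR2, the helicase that unwinds the U4/U6 duplex. Its levels were 357 and 347 CPM in control, 427 in each ZM11-kd1 library, and 442 and 519 in ZM11-kd2. Every knockdown library was above both controls, by a log2 fold change of 0.28 ± 0.07 in ZM11-kd1 (edgeR adjusted p = 0.00139) and 0.45 ± 0.07 in ZM11-kd2 (adjusted p = 2.33e-05). The ZM11-kd1 value was −0.08 with library totals alone (adjusted p = 0.31) and 0.69 corrected for GC content and length.

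PRPF6, which bridges U5 to U4/U6 in the tri-snRNP, had the largest rise within U5 as fitted. It went from 97.2 and 92.8 CPM in control to 248 and 253 in ZM11-kd1 and 200.2 and 191.0 in ZM11-kd2, with no overlap between any of the 3 groups. That is 2.64-fold (log2 1.40 ± 0.05, edgeR adjusted p = 1.07e-11) and 2.06-fold (1.04 ± 0.05, adjusted p = 3.81e-10). PRPF6 was 0.91 and 0.96 when corrected for GC content and length, below TXNL4A (0.97) in ZM11-kd1 and CD2BP2 (0.98) in ZM11-kd2. CD2BP2 encodes a protein that is bound to the free U5 particle and leaves before the tri-snRNP forms. It rose from 103 and 105 CPM in control to 247 and 254 in ZM11-kd1 and 219 and 205 in ZM11-kd2, again without overlap. Its folds were 2.40 (log2 1.26 ± 0.05) and 2.03 (1.02 ± 0.05), with edgeR adjusted p-values of 3.27e-11 and 5.04e-10. Exons of CD2BP2-DT on the opposite strand overlap 9.9% of its exonic length.

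TXNL4A, the small thioredoxin-like protein of U5 (DIM1 in yeast), showed the same order of groups as fitted. Corrected for GC content and length, the log2 difference of ZM11-kd2 from ZM11-kd1 was −0.36 for TXNL4A. For PRPF6 it was then 0.0498 (not called) and for CD2BP2 0.11 (called higher), so that these lost the order. TXNL4A measured 91.5 and 95.4 CPM in control, 170.2 and 175 in ZM11-kd1, and 144 and 138 in ZM11-kd2. The groups did not overlap, and the log2 fold changes were 0.88 ± 0.05 and 0.59 ± 0.05 (edgeR adjusted p = 1.38e-09 and 1.79e-07). DDX23 encodes the helicase PRP28, which frees the 5′ splice site from U1. It had 132 and 130.2 CPM in control, 130.0 and 131 in ZM11-kd1, and 159.9 and 154 in ZM11-kd2. It was not called in ZM11-kd1 (log2 −0.01 ± 0.05, adjusted p = 0.915) and higher in ZM11-kd2 (0.26 ± 0.05, adjusted p = 4.70e-04), by edgeR. Corrected for GC content and length, DDX23 was called higher in ZM11-kd1 too (0.24, adjusted p = 7.79e-04). With library totals alone it was called lower in ZM11-kd1 (−0.36, adjusted p = 1.17e-05) and was not called in ZM11-kd2 (0.08, adjusted p = 0.148).

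SNRNP40, a WD-repeat subunit of U5, was called in neither knockdown. Its 6 values ran from 49.1 to 59.4 CPM, the groups overlapped, and the log2 fold changes were −0.04 ± 0.07 and 0.09 ± 0.07 (edgeR adjusted p = 0.639 and 0.287). Both values changed sign under another scaling or correction, and with library totals alone it was called lower in ZM11-kd1 (−0.39, adjusted p = 2.43e-04).

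Per kilobase of canonical transcript, the control mean levels of the 8 U5 genes ran from 22.1 CPM for EFTUD2 to 49.0 for SNRNP200, with PRPF8 next at 47.7. In ZM11-kd1 the highest levels per kilobase were those of PRPF6 (82.2) and CD2BP2 (74.4), and the lowest was again EFTUD2 (17.3). In ZM11-kd2 SNRNP200 led at 66.8, followed by PRPF6 at 64.2 and CD2BP2 at 63.0. PRPF8 stood above PRPF6 in control (47.7 against 31.2 per kilobase) and below it in both knockdowns (30.7 against 82.2, and 42.7 against 64.2).

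**Figure D2:**
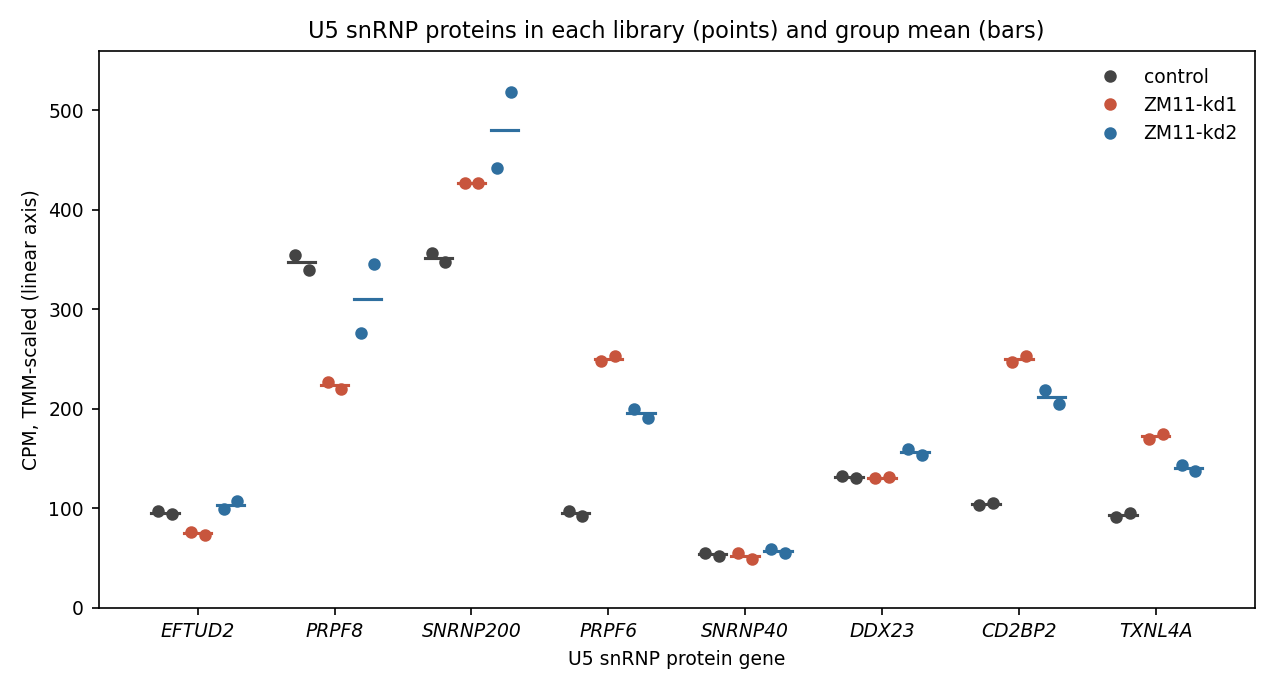
TMM-scaled CPM (y axis, linear, from 0) of the 8 U5 snRNP genes (x axis) in each library, with points for the 2 libraries a group and a bar at the group mean. PRPF6, CD2BP2 and TXNL4A are above control in all 4 knockdown libraries, PRPF8 and EFTUD2 are below control in both ZM11-kd1 libraries, and SNRNP40 stays between 49.1 and 59.4 CPM.

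As examples of U5 genes that rose and that did not, 4 promoters are shown, 2 that rose in both knockdowns (PRPF6 and SNRNP200) and 2 that did not (PRPF8, lower in ZM11-kd1, and SNRNP40, not called). Each is the 150 bases just before the RefSeq start in GRCh38.p14, written 5′ to 3′ along the gene, at chr20:63980982-63981131 on the plus strand for PRPF6, chr2:96305547-96305696 on the minus strand for SNRNP200, chr17:1684868-1685017 on the minus strand for PRPF8 and chr1:31296789-31296938 on the minus strand for SNRNP40. Capitals mark the ETS core CCGGAAG, or CTTCCGG on the other strand, and the CCAAT box, or ATTGG on the other strand.
PRPF6: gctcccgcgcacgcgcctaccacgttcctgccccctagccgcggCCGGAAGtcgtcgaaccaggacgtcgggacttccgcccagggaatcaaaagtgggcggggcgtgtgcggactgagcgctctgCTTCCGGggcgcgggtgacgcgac
SNRNP200: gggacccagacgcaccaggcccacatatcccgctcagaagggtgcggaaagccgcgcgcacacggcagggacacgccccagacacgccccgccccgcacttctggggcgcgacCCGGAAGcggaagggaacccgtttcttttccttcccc
PRPF8: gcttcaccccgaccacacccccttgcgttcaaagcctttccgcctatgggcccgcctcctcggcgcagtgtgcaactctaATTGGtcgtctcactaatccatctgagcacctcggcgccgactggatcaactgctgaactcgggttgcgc
SNRNP40: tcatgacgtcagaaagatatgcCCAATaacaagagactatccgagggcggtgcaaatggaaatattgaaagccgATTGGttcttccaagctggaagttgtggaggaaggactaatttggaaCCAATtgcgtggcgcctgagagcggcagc

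PRPF6 has 2 ETS cores in this stretch and SNRNP200 has 1, and neither has a CCAAT box. PRPF8 has 1 CCAAT box and SNRNP40 has 3, and neither has an ETS core. Not all of the other U5 genes follow that division: over the longer window below, TXNL4A rose with neither motif, CD2BP2 rose with both, and EFTUD2 has neither. DDX23, called higher in ZM11-kd2 alone, has a CCAAT box only. In all, 5 motifs were searched on both strands in the window from 250 bases before to 50 after each start, which RefSeq gave for 50 of the 55 genes, 10 of them with more than 1 start; a gene counted as having a motif if any of its windows held it. The ETS core was in 27 of the 50 (54%), compared with 12.2% of 27305 genes with a window and 20% of the 12463 of these that were tested. The CCAAT box was in 21 (42%, against 39.7% and 42.6%), ATGGCGG, a core of YY1 sites, in 11 (22%, against 6.7% and 11%), the TATA box TATAAA in 2 (4%, against 14% and 9.2%), and the E-box CACGTG in 3 (6%, against 8.8% and 11.9%).

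Among genes with an ETS core, the median log2 fold change was 0.87 in ZM11-kd1 and 0.63 in ZM11-kd2, and among those without it was 0.28 in each. For the other motifs the medians in ZM11-kd1 with and without were −0.35 and 0.62 (E-box), 0.57 and 0.88 (CCAAT), 0.37 and 0.65 (ATGGCGG) and 0.54 and 0.62 (TATAAA). In ZM11-kd2 they were 0.29 and 0.53, 0.32 and 0.60, 0.61 and 0.50, and 0.59 and 0.51. These are descriptions with no test, since the motifs were compared after the fold changes were known. A match is a run of letters and not a shown binding site.

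Most U2 snRNP and U2AF genes rose. Of 14, 10 were higher and 4 lower in ZM11-kd1, and 12 were higher and 2 lower in ZM11-kd2, with medians of 0.66 and 0.69 on the log2 scale. In ZM11-kd1 these became 7 higher and 5 lower with a median of 0.30 under library totals alone, and 11 higher and 2 lower with a median of 0.34 corrected for GC content and length. Their summed level was 1891 and 1901 CPM in control, 2765 and 2774 in ZM11-kd1, and 3273 and 3188 in ZM11-kd2, with no overlap between groups.

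SF3B6, the subunit known as p14 that contacts the branch point adenosine, had the largest rise of the 55 genes in both knockdowns as fitted. Its level was 115 and 121 CPM in control, 393 and 416 in ZM11-kd1, and 463 and 378 in ZM11-kd2. All 4 knockdown libraries were far above both controls, and the knockdown groups overlapped each other. The changes were 3.43-fold (log2 1.78 ± 0.08, edgeR adjusted p = 5.04e-11) and 3.57-fold (1.83 ± 0.08, adjusted p = 6.68e-11). With the GC and length correction SF3B6 was 1.45 and 1.57, and SNRPB, at 1.64, was then above it in ZM11-kd1.

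Another 4 subunits of SF3b, the part of U2 that holds the branch site, rose at least 1.5-fold in both knockdowns, namely SF3B2 (log2 1.06 and 1.22), SF3B4 (0.96 and 1.04), SF3B5 (1.31 and 0.79) and PHF5A (1.02 and 1.13). The SF3a subunits rose as well, with SF3A1 at 0.21 and 0.78, SF3A2 at 1.02 and 0.46 and SF3A3 at 0.35 and 0.53. SNRPB2, the U2 B″ protein, rose by 1.51 and 1.20. All of these were called higher in both knockdowns, but with library totals alone SF3A1 was called lower (−0.15) and SF3A3 was not called (−0.0006) in ZM11-kd1. The rise of SF3A1 there was also not called with upper quartile scaling (0.13, adjusted p = 0.0581) or without replicate 2 of control (0.18, adjusted p = 0.0771). In ZM11-kd1 the values corrected for GC content and length were smaller for SF3A2 (0.12, adjusted p = 0.0523, not called), SF3B4 (0.26), PHF5A (0.47) and SF3B5 (0.63), and larger for SF3A1 (0.38) and SF3B2 (1.43).

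SF3B1, the largest subunit of SF3b and a target of splicing inhibitors, did not follow them. It measured 381 and 378 CPM in control, 288 in each ZM11-kd1 library, and 459 and 470.4 in ZM11-kd2. The groups did not overlap, with ZM11-kd1 lowest and ZM11-kd2 highest. The log2 fold change was −0.40 ± 0.05 in ZM11-kd1 (edgeR adjusted p = 3.00e-06) and 0.29 ± 0.05 in ZM11-kd2 (adjusted p = 7.27e-05), and corrected for GC content and length they were 0.28 (adjusted p = 4.41e-05) and 0.49.

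SF3B3, which binds SF3B1, had the same order of groups. Its levels were 214 and 212 CPM in control, 161 and 159.9 in ZM11-kd1, and 227 and 235 in ZM11-kd2. The fall in ZM11-kd1 was −0.41 ± 0.05 (edgeR adjusted p = 3.26e-06), and 0.12 corrected for GC content and length. The rise of 0.12 ± 0.05 in ZM11-kd2 was at the edge of the threshold (adjusted p = 0.0459). It was not called when either control library (0.12 and 0.11), either ZM11-kd1 library (0.12 each) or replicate 2 of ZM11-kd2 (0.10) was left out, with adjusted p from 0.0548 to 0.213, and was −0.05 with library totals alone. Nor was it called with upper quartile scaling (0.01, adjusted p = 0.833), by the DESeq2 Wald test (0.12, adjusted p = 0.0709), with only the groups compared (0.11, adjusted p = 0.102), with no filter on low counts (0.12, adjusted p = 0.0629) or with at least 10 counts in every library (0.08, adjusted p = 0.158). The GC and length correction gave 0.43, which was called.

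SNRPA1, the U2 A′ protein, moved the other way. It had 51.2 and 55.8 CPM in control, 63.3 and 65.5 in ZM11-kd1, and 39.4 and 38.4 in ZM11-kd2. ZM11-kd1 was above and ZM11-kd2 below both controls, at 0.27 ± 0.07 (edgeR adjusted p = 0.00192) and −0.46 ± 0.07 (adjusted p = 2.28e-05). The former was 0.20 (adjusted p = 0.056) without replicate 1 of control and −0.09 with library totals alone.

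U2AF2 encodes the large U2AF subunit, which binds the polypyrimidine tract. Its level was 259 and 272 CPM in control, 245 and 243 in ZM11-kd1, and 397 and 407 in ZM11-kd2. The rise in ZM11-kd2 was 0.60 ± 0.05 (edgeR adjusted p = 7.05e-08), with both libraries far above control. The difference of −0.12 ± 0.05 in ZM11-kd1 (adjusted p = 0.0416) was not called when either control library (−0.16 and −0.09) or either ZM11-kd1 library (−0.12 and −0.11) was left out, with adjusted p from 0.0672 to 0.311. Nor was it called by the DESeq2 Wald test (−0.12, adjusted p = 0.0673) or by edgeR with DESeq2 size factors (−0.12, adjusted p = 0.0501). It was −0.48 with library totals alone and −0.66 corrected for GC content and length, both called.

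U2AF1, the small U2AF subunit that reads the AG at the end of the intron, was listed at a low level and was the member that fell furthest. Its counts were 230 and 236 in control, 48 and 55 in ZM11-kd1, and 94 and 82 in ZM11-kd2. In CPM these are 7.56 and 7.60, 1.41 and 1.86, and 2.63 and 2.39, with no overlap between groups and log2 fold changes of −2.22 ± 0.19 and −1.59 ± 0.18 (edgeR adjusted p = 7.45e-08 and 1.62e-06). The annotation holds a near-identical copy, U2AF1L5, with 264 and 192, 48 and 31, and 76 and 54 counts and changes of −2.58 and −1.9985. Reads that match both copies can be split or dropped in counting, so the level of U2AF1 is uncertain.

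The 3 U1 proteins went separate ways in ZM11-kd2. SNRPC, the U1 C protein that touches the 5′ splice site duplex, rose from 78.2 and 84.1 CPM in control to 211 and 215 in ZM11-kd1 and 163 and 143 in ZM11-kd2. Its groups did not overlap, and the log2 fold changes were 1.39 ± 0.07 and 0.91 ± 0.07 (edgeR adjusted p = 9.41e-11 and 1.45e-08). SNRPA, the U1 A protein that binds a stem loop of U1 RNA, had 48.9 and 49.3 CPM in control, 46.2 and 47.5 in ZM11-kd1, and 25.1 and 21.9 in ZM11-kd2. It was −0.07 ± 0.07 in ZM11-kd1 (adjusted p = 0.409) and fell by 1.06 ± 0.08 in ZM11-kd2 (adjusted p = 1.47e-08). In ZM11-kd1 it was called lower with library totals alone (−0.42) and with the correction for GC content and length (−0.72). Corrected in that way, SNRPC was 0.82 in ZM11-kd1. SNRNP70, the U1 70K protein, was higher in ZM11-kd1 (0.62, and 0.15 so corrected) and not called in ZM11-kd2 (−0.13, adjusted p = 0.0725). In ZM11-kd2 it was called lower with library totals alone (−0.30), with upper quartile scaling (−0.23), with the GC and length correction (−0.14) with at least 10 counts in every library (−0.17) and without replicate 1 of that group (−0.21).

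The Sm ring binds the RNAs of U1, U2, U4 and U5 and is their common core. All 7 of its genes rose in ZM11-kd1 and 6 rose in ZM11-kd2, with medians of 1.21 and 0.48. The summed level was 639 and 676 CPM in control, 1410 and 1500 in ZM11-kd1, and 1033 and 862 in ZM11-kd2, and the groups did not overlap. All 7 were also lower in ZM11-kd2 than in ZM11-kd1, by 0.21 to 1.24 on the log2 scale, and 5 of the 7 were still called under each other scaling and tool tried. In ZM11-kd2 the count was 4 higher and 1 lower with library totals alone and with upper quartile scaling, and 5 higher and 1 lower corrected for GC content and length. The gene then called lower was SNRPF (−0.42, −0.35 and −0.55), which was also called lower without replicate 1 of control (−0.32) or of ZM11-kd2 (−0.49) and under both other filters on low counts (−0.24 and −0.28). The rise of SNRPD2 in ZM11-kd2 was small (0.18, adjusted p = 0.0466, with overlapping libraries), was 0.0055 with library totals alone and −0.04 corrected for GC content and length, and was not called when any library but replicate 2 of ZM11-kd2 was left out (0.04 to 0.22, adjusted p from 0.0538 to 0.499), nor with upper quartile scaling (0.07), with at least 10 counts in every library (0.14), with only the groups compared (0.17) or by the DESeq2 Wald test (0.18). The rise of SNRPD3 (0.20) was 0.03 with library totals alone and 0.10 with upper quartile scaling, neither called, and was not called without replicate 1 of control (0.17, adjusted p = 0.121) or replicate 1 of ZM11-kd2 (0.13, adjusted p = 0.062).

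SNRPG had the largest rise in the ring as fitted, from 62.2 and 71.8 CPM in control to 180.0 and 198 in ZM11-kd1 and 161 and 139 in ZM11-kd2. The log2 fold changes were 1.495 ± 0.08 and 1.16 ± 0.08 (edgeR adjusted p = 3.76e-10 and 9.36e-09), with no overlap between groups. SNRPB, which encodes the Sm proteins B and B′, was close behind, with 85.4 and 85.9 CPM in control, 228 and 239.9 in ZM11-kd1, and 199 and 156 in ZM11-kd2. Its changes were 1.45 ± 0.09 and 1.05 ± 0.09 (adjusted p = 1.20e-09 and 5.99e-08), again without overlap. SNRPB (1.64 and 1.10) was above SNRPG (1.17 and 0.89) after the GC and length correction. The other Sm genes ranged from 0.58 (SNRPD3) to 1.41 (SNRPD2) in ZM11-kd1 and from −0.24 (SNRPF, not called) to 0.65 (SNRPE) in ZM11-kd2. On the log2 scale SNRPF also had the widest gap between ZM11-kd2 replicates of all 55 genes (0.45), at 80.6 and 58.8 CPM.

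The U4/U6 and tri-snRNP proteins rose in 4 of 5 cases in ZM11-kd1 and in 5 of 5 in ZM11-kd2, with medians of 0.57 and 0.63. With library totals alone 3 rose and 1 fell in ZM11-kd1 and 4 rose in ZM11-kd2. PRPF31, which binds the U4 snRNA and is linked to retinitis pigmentosa, had 22.6 and 23.0 CPM in control, 53.0 and 53.9 in ZM11-kd1, and 40.6 and 34.8 in ZM11-kd2. The groups did not overlap, at log2 fold changes of 1.23 ± 0.08 and 0.73 ± 0.08 (edgeR adjusted p = 3.48e-09 and 1.77e-06), the former 0.56 corrected for GC content and length. Its exons overlap those of TFPT on the opposite strand over 9.3% of their length, and the use of strand in counting is not given in the sources used here. USP39, a ubiquitin protease-like protein needed for the tri-snRNP to join, had 59.4 and 61.0 CPM in control, 88.7 and 90.5 in ZM11-kd1, and 96.4 and 89.6 in ZM11-kd2. It rose by 0.57 ± 0.06 and 0.63 ± 0.06 (adjusted p = 5.38e-07 and 2.58e-07). PRPF4 was not called in ZM11-kd1 (−0.04) and rose 2.01-fold in ZM11-kd2, SART1 rose by 0.95 and 0.18, and PRPF3 by 0.24 and 0.44, the former −0.11 with library totals alone. With those totals PRPF4 was called lower in ZM11-kd1 (−0.40, adjusted p = 4.37e-05) and SART1 was 0.0047 in ZM11-kd2. The rise of SART1 in ZM11-kd2 was also not called with upper quartile scaling (0.07), without replicate 1 of control (0.13) without replicate 1 of ZM11-kd2 (0.12) or with at least 10 counts in every library (0.14), with adjusted p from 0.0543 to 0.321. In ZM11-kd1 SART1 was 0.56 and PRPF3 0.44 when corrected for GC content and length.

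The LSM ring of LSM2 to LSM8 binds the 3′ end of U6 RNA. In ZM11-kd1, 6 of its 7 genes were higher and LSM6 was not called. In ZM11-kd2, 4 were higher, 2 were lower and LSM6 was again not called (log2 fold changes 0.04 and 0.03, of either sign under other scalings, and called lower in ZM11-kd1 at −0.31 with library totals alone). With those totals 4 were higher and 1 lower in ZM11-kd1 and 3 higher and 2 lower in ZM11-kd2. LSM3 went from 67.2 and 68.0 CPM in control to 137 and 138 in ZM11-kd1 and 108 and 96.8 in ZM11-kd2. LSM7 had 84.6 and 86.8, 166 and 171, and 139 and 123 CPM in the same order. For both genes the 3 groups did not overlap, and the changes were 1.02 ± 0.06 and 0.60 ± 0.06 for LSM3 (edgeR adjusted p = 1.22e-09 and 6.28e-07) and 0.97 ± 0.06 and 0.61 ± 0.06 for LSM7 (adjusted p = 2.45e-09 and 6.16e-07). Corrected for GC content and length, LSM7 was 0.07 in ZM11-kd1 (adjusted p = 0.196). LSM4 rose by 1.11 and 0.28 (0.41 and 0.16 so corrected), the latter not called with library totals alone (0.11, adjusted p = 0.158) or upper quartile scaling (0.18, adjusted p = 0.0544), and LSM8 by 0.61 and 0.50 (1.43 and 0.77).

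LSM5 and LSM2 were higher in ZM11-kd1 and lower in ZM11-kd2. LSM5 had 92.2 and 98.8 CPM in control, 122 and 125 in ZM11-kd1, and 78.1 and 64.3 in ZM11-kd2, with no overlap and changes of 0.37 ± 0.08 and −0.42 ± 0.08 (edgeR adjusted p = 4.57e-04 and 1.96e-04). With library totals alone its rise in ZM11-kd1 was 0.02 (adjusted p = 0.826). LSM2 was lower than all members but U2AF1 in control, with 16.5 and 16.0 CPM, and had 19.2 and 20.4 in ZM11-kd1 and 13.7 and 11.9 in ZM11-kd2. Its changes were 0.28 ± 0.10 (adjusted p = 0.018) and −0.34 ± 0.10 (adjusted p = 0.00783). The rise was not called with library totals alone (−0.07, adjusted p = 0.527) or upper quartile scaling (0.21, adjusted p = 0.0718). Nor was it called without either control library (0.30 and 0.26) or without replicate 2 of ZM11-kd1 (0.24), and the fall was not called without replicate 1 of control (−0.32) or replicate 2 of ZM11-kd2 (−0.24), with adjusted p from 0.0521 to 0.104. LSM2 was called lower in both knockdowns (−0.35 and −0.52) after the GC and length correction, and LSM5 was 0.60 in ZM11-kd1.

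The PRP19 complex was higher throughout, with 4 of 4 genes called in each knockdown and medians of 0.97 and 1.11. Its summed level went from 401 and 405 CPM in control to 867 and 855 in ZM11-kd1 and 885 and 848 in ZM11-kd2, where the knockdown groups overlapped each other and not the controls. PRPF19, the ubiquitin ligase after which the complex is named, had 173 CPM in each control, 522 and 510.4 in ZM11-kd1, and 448 and 426 in ZM11-kd2. The groups did not overlap. The changes were 2.99-fold (log2 1.58 ± 0.05, edgeR adjusted p = 2.24e-12) and 2.53-fold (1.34 ± 0.05, adjusted p = 1.79e-11). BCAS2, the SPF27 subunit that ties the complex together, went from 34.1 and 33.7 CPM in control to 80.7 in each ZM11-kd1 library and 70.3 and 69.4 in ZM11-kd2. It rose by 1.25 ± 0.06 and 1.04 ± 0.06 (adjusted p = 1.03e-10 and 1.22e-09), without overlap. PLRG1 rose by 0.69 and 1.18, and CDC5L by 0.13 and 0.50, the former −0.22, called lower, with library totals alone and 0.58 corrected for GC content and length. The rise of CDC5L in ZM11-kd1 was not called when any control or ZM11-kd1 library was left out (0.09 to 0.17, adjusted p from 0.076 to 0.33), with upper quartile scaling (0.06), under both other filters on low counts (0.13 and 0.09) or by the DESeq2 Wald test (0.14, adjusted p = 0.0699).

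Helicases and step factors were mostly lower in ZM11-kd1 and mostly higher in ZM11-kd2. In ZM11-kd1, 5 of 7 were lower and 2 higher (median −0.43). In ZM11-kd2, 6 were higher and 1 lower (median 0.32), which became 3 higher and 1 lower with library totals alone (median 0.15). The summed level was 673 and 667 CPM in control, 541 and 529 in ZM11-kd1, and 966 and 1012 in ZM11-kd2, so that ZM11-kd1 lay below and ZM11-kd2 above both controls.

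DHX15 encodes the helicase that releases the intron lariat. It had 298 and 295 CPM in control, 178 and 171 in ZM11-kd1, and 451 and 456 in ZM11-kd2. The 3 groups were far apart, and the log2 fold changes were −0.76 ± 0.05 (edgeR adjusted p = 2.76e-09) and 0.61 ± 0.05 (adjusted p = 4.14e-08). The former was −0.21, still called, after the GC and length correction. DHX8 (PRP22) frees the joined exons. It had 76.9 and 79.2 CPM in control, 42.1 and 41.8 in ZM11-kd1, and 85.3 and 99.0 in ZM11-kd2. Its fall in ZM11-kd1 was −0.90 ± 0.07 (adjusted p = 3.31e-08), and its rise in ZM11-kd2 was 0.24 ± 0.07 (adjusted p = 0.00667), which was not called without replicate 1 of control (0.22, adjusted p = 0.064), with library totals alone (0.07) or with upper quartile scaling (0.13, adjusted p = 0.0962). After the GC and length correction these were −0.37 and 0.52, both called.

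DHX38 (PRP16) remodels the spliceosome between the steps of catalysis. It had 62.4 and 62.8 CPM in control, 49.1 and 43.4 in ZM11-kd1, and 76.8 and 79.2 in ZM11-kd2. The groups did not overlap, at −0.43 ± 0.07 and 0.32 ± 0.07 (edgeR adjusted p = 4.11e-05 and 6.11e-04), and the latter was 0.15 with library totals alone (adjusted p = 0.0755). Exons of PMFBP1 on the opposite strand overlap 11.1% of its exonic length. CWC22, which brings in the exon junction complex, had 37.6 and 38.3 CPM in control, 30.8 and 30.1 in ZM11-kd1, and 44.1 and 47.5 in ZM11-kd2. Again the groups were apart, with changes of −0.32 ± 0.07 and 0.27 ± 0.07 (adjusted p = 9.87e-04 and 0.00292), and the latter was 0.10 with library totals alone (adjusted p = 0.236) and 0.15 corrected for GC content and length (adjusted p = 0.0501).

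AQR, the intron-binding helicase Aquarius, was the only member besides U2AF1 that was called lower in both. Its level was 64.9 and 65.5 CPM in control, 31.4 in each ZM11-kd1 library, and 52.0 and 60.3 in ZM11-kd2. It fell by 1.05 ± 0.08 in ZM11-kd1 (edgeR adjusted p = 7.87e-09), and by 0.29 corrected for GC content and length. The fall of 0.22 ± 0.07 in ZM11-kd2 (adjusted p = 0.0148) was not called without replicate 1 of ZM11-kd2 (−0.12) or without either control library (−0.22 and −0.21), with adjusted p from 0.0625 to 0.126, and was 0.06 with that correction. SLU7, which acts in choosing the 3′ splice site, rose from 83.6 and 72.6 CPM in control to 139.6 and 145 in ZM11-kd1 and 192 and 203 in ZM11-kd2. Its changes were 0.87 ± 0.07 and 1.34 ± 0.07 (adjusted p = 1.96e-08 and 2.68e-10), with no overlap between groups. DHX16, the helicase PRP2, rose by 0.40 and 0.36, the former not called with that correction (0.13, adjusted p = 0.0767) or with library totals alone (0.05, adjusted p = 0.545).

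**Figure D3:**
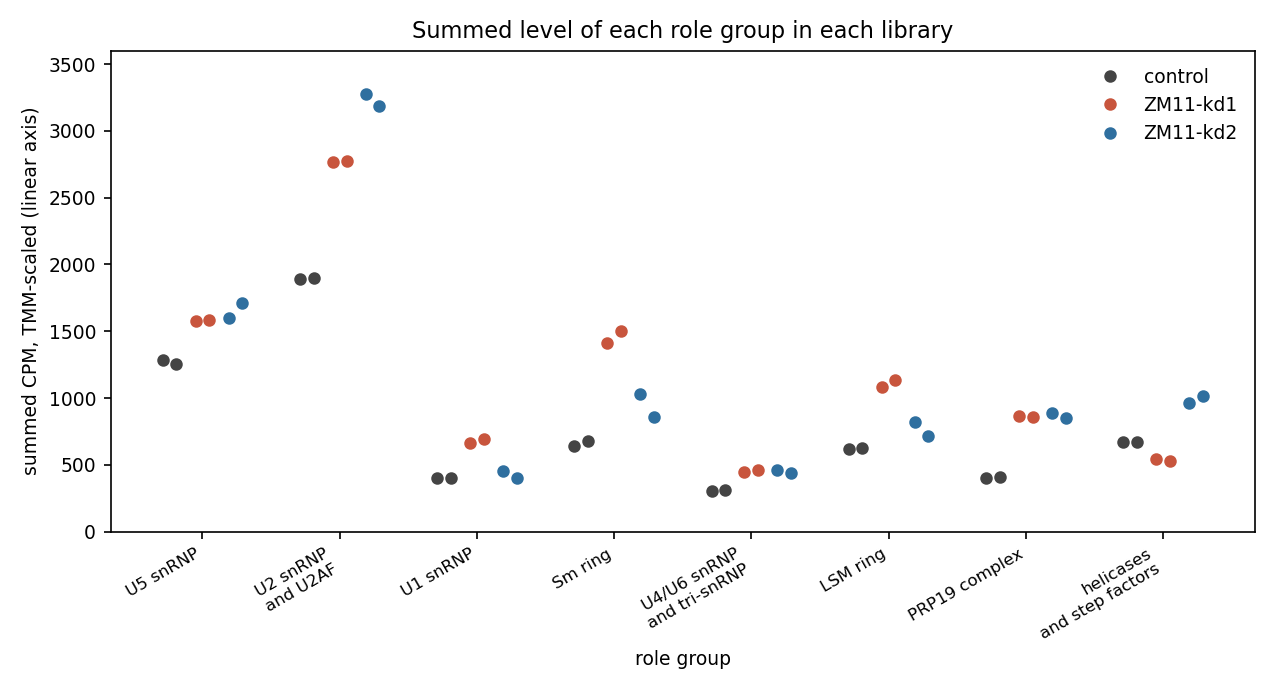
Summed TMM-scaled CPM (y axis, linear, from 0) of the genes of each role group (x axis), with a point for each of the 2 libraries a group. All 4 knockdown libraries are above both controls for U5, U2 and U2AF, the Sm ring, U4/U6, the LSM ring and the PRP19 complex. As a share of raw counts, before TMM scaling, both ZM11-kd1 libraries are below both controls for U5. U1 is above control in ZM11-kd1 (664 and 694 CPM) and overlaps it in ZM11-kd2 (451.6 and 400.1, against 400.5 and 404.6). For the helicases and step factors ZM11-kd1 (541 and 529 CPM) is below control and ZM11-kd2 (966 and 1012) above it.

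The knockdowns were then compared with each other, which asks whether the spliceosome genes responded alike in both. In ZM11-kd2 against ZM11-kd1, 21 of the 55 genes were higher (38.2%, against 34.9% of all genes) and 26 lower (47.3%, against 33.8%), with a median log2 difference of −0.05. With library totals alone these were 26 higher and 19 lower with a median of 0.14, and corrected for GC content and length 21 higher and 19 lower with a median of 0.05, where all genes had medians of 0.21 and 0.01. Rises then made up 57.8% and 52.5% of the members' calls, against 61.1% and 49.9% of the calls over all genes. By role, all 3 U1 genes, all 7 Sm genes and 5 of 7 LSM genes were lower in ZM11-kd2 than in ZM11-kd1, while 6 of 7 helicases and step factors were higher and none lower. Of the Sm genes 5 were still called lower with library totals alone, and corrected for GC content and length 4 LSM genes were lower and 1, LSM7, was higher (0.31).

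The 10 genes called in opposite directions against control were chosen for that pattern, which fixes the sign of their difference between the knockdowns, so the differences are given as a description with no test. On the log2 scale of ZM11-kd2 over ZM11-kd1, DHX15 stood at 1.38 ± 0.05, DHX8 at 1.14 ± 0.07, DHX38 at 0.75 ± 0.07, U2AF2 at 0.72 ± 0.05, SF3B1 at 0.69 ± 0.05, CWC22 at 0.59 ± 0.07 and SF3B3 at 0.52 ± 0.05, all higher in ZM11-kd2. LSM5 (−0.80 ± 0.08), SNRPA1 (−0.73 ± 0.07) and LSM2 (−0.63 ± 0.10) were lower in ZM11-kd2. Corrected for GC content and length, all 10 kept their direction, with LSM2 at −0.17, SF3B1 at 0.21, SF3B3 at 0.31 and DHX15 at 0.91. In that fit 6 of the 10 were still called in opposite directions against control, namely DHX15, DHX8, DHX38, U2AF2, LSM5 and SNRPA1, while SF3B1 and SF3B3 were higher in both, LSM2 was lower in both, and CWC22 was not called in ZM11-kd2. Under the other alternatives tried, 3 of the 10 were still called in opposite directions with library totals alone, 5 without replicate 1 of control, and 7 to 10 otherwise. Among the genes called in the same direction or in only 1 knockdown, the widest differences were SNRPD2 (−1.24), PRPF4 (1.05) and SNRPA (−0.99), which were named after their values had been seen.

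**Figure D4:**
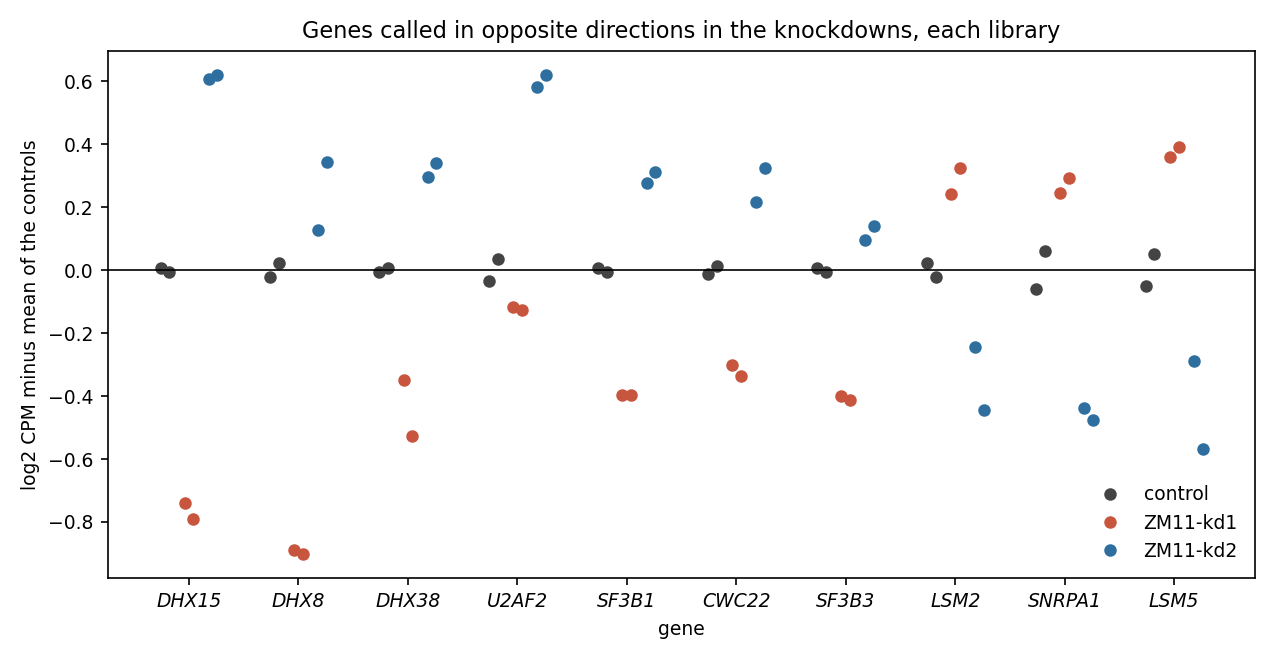
Log2 CPM minus the mean of the control libraries (y axis) in each library for the 10 genes called in opposite directions in the knockdowns (x axis). For the first 7 genes ZM11-kd1 lies below and ZM11-kd2 above the controls, and for LSM2, SNRPA1 and LSM5 the order is turned.

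Fold changes of spliceosome genes went with transcript length. Across the 55 genes, Spearman's rho between the log2 fold change and the exonic length, the union of a gene's annotated exons in GENCODE, was −0.66 in ZM11-kd1, −0.29 in ZM11-kd2 and 0.63 for ZM11-kd2 against ZM11-kd1. Across all genes tested with a known length it was −0.29, −0.13 and 0.24. The genes share libraries and are not independent, so these are descriptions. The members were shorter than other genes, with a median exonic length of 3975 bases against 5057.5, and their median GC content of exons was 48.0% against 48.1%.

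Split at 3975 bases, the 27 shorter members had a median of 1.02 on the log2 scale in ZM11-kd1 and the 28 longer members 0.17, where all genes of the same length classes had 0.49 and −0.26. Of the shorter members 24 were higher (88.9%, against 51% of all shorter genes) and 1 lower (3.7%, against 24.7%), and of the longer 15 were higher (53.6%, against 31.3% of all longer genes) and 10 lower (35.7%, against 48.9%). In ZM11-kd2 the medians were 0.63 for the shorter and 0.40 for the longer members, against 0.14 and −0.09 for all genes. In both length classes and in both knockdowns the members' median was above that of all genes. Between the knockdowns, 20 of the 27 shorter members were lower in ZM11-kd2 (74.1%, against 45.1% of all shorter genes) and 19 of the 28 longer ones were higher (67.9%, against 43.6% of all longer genes). A length trend also separated the ZM11-kd2 replicates, with a rho of −0.26 across all genes between length and the difference of replicate 1 from replicate 2. Whether RNA quality or library preparation had a part in these trends was not tested.

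Outside the 55, another 65 genes of splicing were read as 8 lists, of which 64 passed the filter. DDX39B, an abundant helicase in most cells, was listed at 0 in every library and could not be tested. Of the 64, 36 were higher and 20 lower in ZM11-kd1, and 37 were higher and 11 lower in ZM11-kd2, with medians of 0.57 and 0.28. Over all genes tested the shares were 38.2% higher and 39.8% lower in ZM11-kd1, and 36.5% higher and 36.9% lower in ZM11-kd2, and several of the small lists below lie near them. The lists were chosen with earlier results of these data known and get no test as lists.

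Factors that help to build U5 were higher: of AAR2, ECD, TSSC4 and ZNHIT2, all 4 rose in ZM11-kd1 and 3 in ZM11-kd2. TSSC4 (1.81 and 1.38) had the largest rise in ZM11-kd2, while another of them had the largest in ZM11-kd1 (1.88). The widest difference between the knockdowns in this list was −1.62. AAR2, which holds PRPF8 during U5 assembly, rose by 0.74 and 1.06. Of 5 proteins of the B complex, the stage before activation, 4 rose and 1 fell in ZM11-kd1 and 5 rose in ZM11-kd2, with IK at 1.52 and 1.18. Of 16 further PRP19-related and step factors, 10 were higher and 3 lower in ZM11-kd1, and 11 were higher and none lower in ZM11-kd2. The exon junction complex divided, with its core members EIF4A3 (1.55 and 1.02) and MAGOH (1.34 and 0.77) higher, MAGOHB (−0.39 and −0.32) and CASC3 (−0.40 and −0.25) lower, and RBM8A higher in ZM11-kd1 (0.86) and not called in ZM11-kd2 (0.02).

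The proteins that attach to U1 and U2 without being part of them went the other way in ZM11-kd1, where 7 of 11 were lower and 1 higher. In ZM11-kd2, 4 were lower and 5 higher. U2SURP (−1.28 and −0.77), LUC7L2 (−0.18 in each) and the U1-associated LUC7L (−0.45 and −1.37) and LUC7L3 (−0.37 and −0.56) were lower in both. Of 12 genes for assembling snRNPs with the SMN complex, 6 were higher in each knockdown and 4 and 2 were lower, with STRAP at 0.95 and 0.82 and GEMIN4 at −1.74 and −0.43. Of 8 minor spliceosome genes, 6 were higher in ZM11-kd1 and 3 in ZM11-kd2, and 2 were lower in each. Of the 3 other Sm-like proteins, LSM1 (0.90 and 0.99) and LSM10 (1.45 and 1.05) were higher and LSM11 (−0.98 and −0.89) lower in both.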

How the data were processed

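The authors deposited 1 table of raw read counts per gene symbol for the 6 libraries. By the study's methods, reads were checked with FastQC 0.11.9, trimmed and aligned to hg38 with STAR 2.7.9a. HTSeq 0.13.5 stands in the submitters' processing notes without its role. The annotation, use of strand and treatment of reads with several matches are not given in the sources used here, which matters for U2AF1 and for the Sm and LSM genes, some of which have processed pseudogenes.

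Counts were fitted with edgeR 4.0.16 (quasi-likelihood test, R 4.3.3) over all 3 groups after the filterByExpr filter and TMM scaling, with 3 residual degrees of freedom. P-values were adjusted by the method of Benjamini and Hochberg over all 16510 genes tested, and a gene was called at an adjusted p under 0.05. Standard errors are from the same fit. Alternatives were other scalings, DESeq2 1.42.0, other filters, a replicate block, only the groups compared, a correction for GC content and length (lowess, span 0.3) and leaving out each library. Replicate libraries differed by more than sampling noise (chi-square per degree of freedom 2.34 to 10.05). Lengths and GC came from GENCODE 44, which matched 32852 of 35322 symbols. The script was tested on simulated data.

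The members and lists were chosen with earlier results of these data known. Values per library are given for all U5 genes, for the 2 genes of each other role group with the largest absolute mean log2 fold change over both knockdowns among those called in at least 1, and for genes called in opposite directions.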

Additional observations from a re-analysis of the deposited data

Results flagged for a closer look

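In ZM11-kd1 and ZM11-kd2, 10 genes were called in opposite directions against the shared control. They were chosen for that pattern, which fixes the sign of the difference between the knockdowns, so its values are a description and no test of it is given. ZM11-kd2 against ZM11-kd1 had log2 values of 1.38 for DHX15, 1.14 for DHX8, 0.75 for DHX38, 0.72 for U2AF2, 0.69 for SF3B1, 0.59 for CWC22 and 0.52 for SF3B3. It was −0.80 for LSM5, −0.73 for SNRPA1 and −0.63 for LSM2. Each group had 2 libraries. The 7 genes that were higher in ZM11-kd2 have exonic lengths of 3524 to 12416 bases, and the 3 that were lower have 1059 to 4695. Corrected for GC content and length, all 10 differences kept their direction, among them LSM2 at −0.17, SF3B1 at 0.21, SF3B3 at 0.31, DHX15 at 0.91 and U2AF2 at 1.22. In that fit SF3B1 and SF3B3 were called higher in both knockdowns and LSM2 lower in both, and CWC22 was not called in ZM11-kd2, so that 6 of the 10 were still called in opposite directions. With library totals alone 3 of the 10 were so called (SF3B1, U2AF2 and DHX15), and without replicate 1 of control 5 (SF3B1, LSM5, CWC22, DHX15 and DHX38).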

How the results depend on the processing

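Among the counts of spliceosome genes called, library totals alone raised the falls in ZM11-kd1 from 11 to 18 (over all genes, from 6572 to 8420). Requiring a 1.5-fold change left 5 falls in ZM11-kd1, 25 rises and 2 falls in ZM11-kd2, and 9 rises and 9 falls in ZM11-kd2 against ZM11-kd1. The median log2 fold change was 0.25 (library totals), 0.53 (upper quartile) and 0.46 (GC content and length corrected) in ZM11-kd1, and 0.33 (library totals) and 0.39 (upper quartile) in ZM11-kd2.

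Leaving out 1 library gave 36 to 39 rises and 10 to 11 falls in ZM11-kd1, 38 to 42 and 5 to 7 in ZM11-kd2, and 16 to 23 and 25 to 28 between the knockdowns, with medians of 0.57 to 0.66 and 0.47 to 0.54. Replicate numbers did not pair the libraries, as same-numbered deviations correlated at 0.006, −0.026 and −0.044. With a replicate block the counts were 38 and 10, 41 and 6, and 20 and 26, and the medians 0.61 and 0.50. Of the named genes, SF3B3 in ZM11-kd2 (0.12, adjusted p = 0.0915), U2AF2 in ZM11-kd1 (−0.12, adjusted p = 0.0818) and SNRNP200 between the knockdowns (0.17, adjusted p = 0.0605) were not called with that block. Among the other genes, SNRPD2 in ZM11-kd2 (0.18, edgeR adjusted p = 0.0864) and CDC5L in ZM11-kd1 (0.13, edgeR adjusted p = 0.0793) also lost their calls with it.

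Of 1440 alternative values for the 96 log2 fold changes of 32 named genes, 1342 kept direction and call, 55 lost a call, 16 gained one and 27 changed sign, 7 of these with a call in the alternative. With GC content and length corrected these were EFTUD2 (0.0911), SNRNP40 (0.0165), DDX23 (0.24), SF3B1 (0.28), SF3B3 (0.12) and LSM2 (−0.35) in ZM11-kd1, PRPF8 (0.13) and AQR (0.0552) in ZM11-kd2, and PRPF6 (0.0498), SNRNP40 (−0.0137), CD2BP2 (0.11), PRPF31 (0.032), LSM7 (0.31) and PRPF19 (0.0788) between the knockdowns. With library totals they were SNRNP200 (−0.077), SNRPA1 (−0.0879) and LSM2 (−0.0711) in ZM11-kd1 and EFTUD2 (−0.0602), SNRNP40 (−0.0826) and SF3B3 (−0.0528) in ZM11-kd2, and with the upper quartile SNRNP40 (−0.0162) in ZM11-kd2. Leaving out 1 library at a time gave ranges that crossed 0 for SNRNP40 (−0.1224 to 0.0428) and DDX23 (−0.0217 to 0.0048) in ZM11-kd1, and between the knockdowns for SF3B6 (−0.1074 to 0.1993) and USP39 (−0.0084 to 0.1108), whose lowest values were without replicate 1 of ZM11-kd2. The cause was not tested. Counting error was largest for U2AF1, with 48 to 236 counts a library.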
